A study of Mus musculus with 6 samples.

Results

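Inmt, Fmo2, Cldn1 and Mamdc2 are 4 of the 16494 genes in the count table, and they were selected on the genotype contrast itself: each had been read as a fibroblast gene with lower counts in Aromhum mice than in WT mice. Every genotype difference given for these 4 genes is therefore a description without a test, also in other cell types of the same mice. Cells came from the lower abdominal muscle (LAM) of male FVB/N mice aged 9 to 10 weeks. One group was 3 Aromhum mice, which carry a genomic copy of CYP19A1, the human aromatase gene, under its own control regions and are labelled with scrotal hernia, and the other was 3 WT littermates, which lack the transgene and are labelled as controls. Littermates of both genotypes were handled together in 3 sessions, per the study's methods, and the labels do not tell which mice shared one, so the true pairs could not enter a fit. Each sample was 1 mouse and each was dissociated with collagenase and dispase, filtered to remove multinucleated fibers and run with the 10x Genomics 3′ kit, so the genotype and the hernia cannot be told apart and myofibers are represented only by a few myonuclei.

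Aromatase converts androgens into estrogens, which act on fibroblasts through estrogen receptor α. Inmt encodes indolethylamine N-methyltransferase, which transfers a methyl group from S-adenosylmethionine to small amines such as tryptamine. Fmo2 encodes a flavin-containing monooxygenase, an enzyme of the endoplasmic reticulum that uses NADPH and oxygen to oxidize nitrogen and sulfur compounds. Cldn1 encodes claudin 1, a membrane protein of tight junctions known from epithelia and from the perineurium around nerve bundles. Mamdc2 encodes a secreted matrix proteoglycan with MAM domains. Fibroblasts of muscle include fibro-adipogenic progenitors (FAPs), tenocytes and, in the hernia model, the cells that the study named hernia-associated fibroblasts (HAFs).

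In the GENCODE vM21 annotation of GRCm38, all 4 genes lie on the minus strand: Inmt on chromosome 6 at 55170626-55175043 with 3 exons, Fmo2 on chromosome 1 at 162874317-162898726 with 9 exons, Cldn1 on chromosome 16 at 26356642-26371841 with 4 exons, and Mamdc2 on chromosome 19 at 23302609-23448442 with 14 exons. Mamdc2 overlaps AC124557.1 on its own strand and AC131118.1 on the opposite strand, neither of which has a row in the count table, and the other members overlap no annotated gene. Promoters are shown because the members were grouped by a shared direction, and the windows show what letters they do or do not share. Windows of 300 bases around the start site, from 250 bases before it to 50 after it, were found in RefSeq (GRCm38.p6) for 3 of the 4 members, and they are written 5′ to 3′ on the gene's strand with matches to the searched motifs in capitals. In Inmt the capitals are the TATA box letters TATAAA and in Cldn1 the GC box GGGCGG, and the Fmo2 window nearest to the GENCODE gene start has none.
Inmt promoter, chr6:55174941-55175240: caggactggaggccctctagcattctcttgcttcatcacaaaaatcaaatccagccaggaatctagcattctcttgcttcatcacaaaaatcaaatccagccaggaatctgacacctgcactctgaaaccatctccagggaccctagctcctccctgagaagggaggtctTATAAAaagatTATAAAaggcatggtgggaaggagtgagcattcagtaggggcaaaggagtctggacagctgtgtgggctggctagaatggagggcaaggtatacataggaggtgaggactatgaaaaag
Fmo2 promoter, chr1:162898709-162899008: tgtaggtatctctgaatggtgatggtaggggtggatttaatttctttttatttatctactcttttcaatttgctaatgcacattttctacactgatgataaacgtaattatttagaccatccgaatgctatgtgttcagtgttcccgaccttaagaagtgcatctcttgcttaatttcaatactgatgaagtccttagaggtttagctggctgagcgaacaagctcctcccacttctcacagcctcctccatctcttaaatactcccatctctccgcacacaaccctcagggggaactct
Cldn1 promoter, chr16:26371790-26372089: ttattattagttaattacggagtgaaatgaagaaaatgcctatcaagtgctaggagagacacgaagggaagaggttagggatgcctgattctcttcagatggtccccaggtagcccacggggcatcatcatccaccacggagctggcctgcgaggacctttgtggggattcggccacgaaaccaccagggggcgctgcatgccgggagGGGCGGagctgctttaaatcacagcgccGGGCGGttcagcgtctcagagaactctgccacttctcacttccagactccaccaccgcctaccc
TATAAA stood at -80 and -69 from the Inmt start site and GGGCGG at -42 and -14 from the Cldn1 start site. The RefSeq start site of Inmt lies inside the gene as annotated by GENCODE, so both TATAAA matches lie nearer to the GENCODE gene start. A second RefSeq window of Fmo2, chr1:162898444-162898743, whose start site lies inside the gene as annotated by GENCODE, held the estrogen response half-site AGGTCA at -9. No motif was present in the promoters of all 3 genes. Among 32851 promoters of this length, searched on both strands, TATAAA was present in 13.6%, AGGTCA in 16.3% and GGGCGG in 35.7%. The full palindromic estrogen response element (present in 0.07% of promoters), the glucocorticoid and androgen response element (0.475%) and the AP-1 site TGANTCA (7.81%) had no match in any of these windows. A match or its absence here describes letters in these windows and not binding.

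The 6 libraries held 7905 to 13764 cell barcodes each (63647 in all), with median UMI (unique molecular identifier) counts per barcode of 4728.5 to 5897 in WT and 6673 to 8727 in Aromhum mice. Barcodes with over 5% mitochondrial UMIs were 38.0%, 68.2% and 40.1% in WT and 30.4%, 30.9% and 27.6% in Aromhum mice 1 to 3, lower in every Aromhum mouse, while the median mitochondrial share of fibroblast-like cells overlapped (2.99%, 4.11% and 3.01% against 2.95%, 3.18% and 2.94%). The barcode limits that the study states include one on this share and a cap of 2500 genes a barcode. With them the members' log2 fold changes in fibroblast-like cells were -1.93 (Inmt), -1.71 (Fmo2), -0.45 (Cldn1) and -2.12 (Mamdc2). The same limits without the cap gave -2.66, -2.37, -0.86 and -2.17, against -2.61, -2.31, -1.10 and -2.19 with every barcode. CYP19A1 had 0 UMIs in each WT library and 770 to 797 in each Aromhum library. Between 120 and 189 barcode sequences per library also occurred in another library. Cells were clustered without the 4 members and named from marker genes, and 21654 of them were fibroblast-like by Pdgfra, Col1a1 and other collagen and matrix genes: 3397, 2207 and 1451 in WT mice 1 to 3 and 4704, 6702 and 3193 in Aromhum mice 1 to 3. Levels are counts per 1000000 (CPM), the UMIs of a gene among all UMIs that a mouse had in the cell group named. They were summed per mouse, so n = 3 mice a genotype and cells are not replicates. Where a share of genes tested is given beside a separation of the genotypes, it counts the genes whose TMM-scaled levels (trimmed mean of M values) lay lower in every Aromhum than in every WT mouse of that cell group.

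The 4 genes differed in where they were detected, and only Inmt was mainly a fibroblast gene. Fibroblast-like cells held 92.5% of the 13764 Inmt UMIs. They held 10.2% of the 102989 Fmo2 UMIs, of which 62.9% were in mesothelial-like cells (marked by Msln and Upk3b) and 17.9% in endothelial-like cells. By mouse, mesothelial-like cells held 40.5%, 50.6% and 34.7% of the Fmo2 UMIs in WT and 70.9%, 76.3% and 82.3% in Aromhum mice, and fibroblast-like cells 12.4% to 17.3% and 5.62% to 9.67%. They held 6.76% of the 3049 Cldn1 UMIs, while 53.9% came from 1 cluster of 525 cells led by Sfrp5, Lypd2 and Wnt6 and 30.4% from a glial-like cluster of 281 cells with Grp and Gatm among its leading genes. Mamdc2, with 3988 UMIs, was spread over fibroblast-like (41.4%), smooth muscle-like (19.8%) and glial-like cells (18.6%). Across 182 sums of 1 cluster in 1 mouse (32 clusters), Pearson's r of the log2 levels was between -0.12 and 0.18 for 5 of the 6 pairs of members and 0.42 for Cldn1 with Mamdc2, with sums of a mouse sharing its library. The 4 genes thus did not follow a common pattern over the cell types, and the name of fibroblast genes was not borne out for Cldn1 or Fmo2. For Mamdc2, fibroblast-like cells held the largest share of UMIs but not the highest level.

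**Figure D1:**
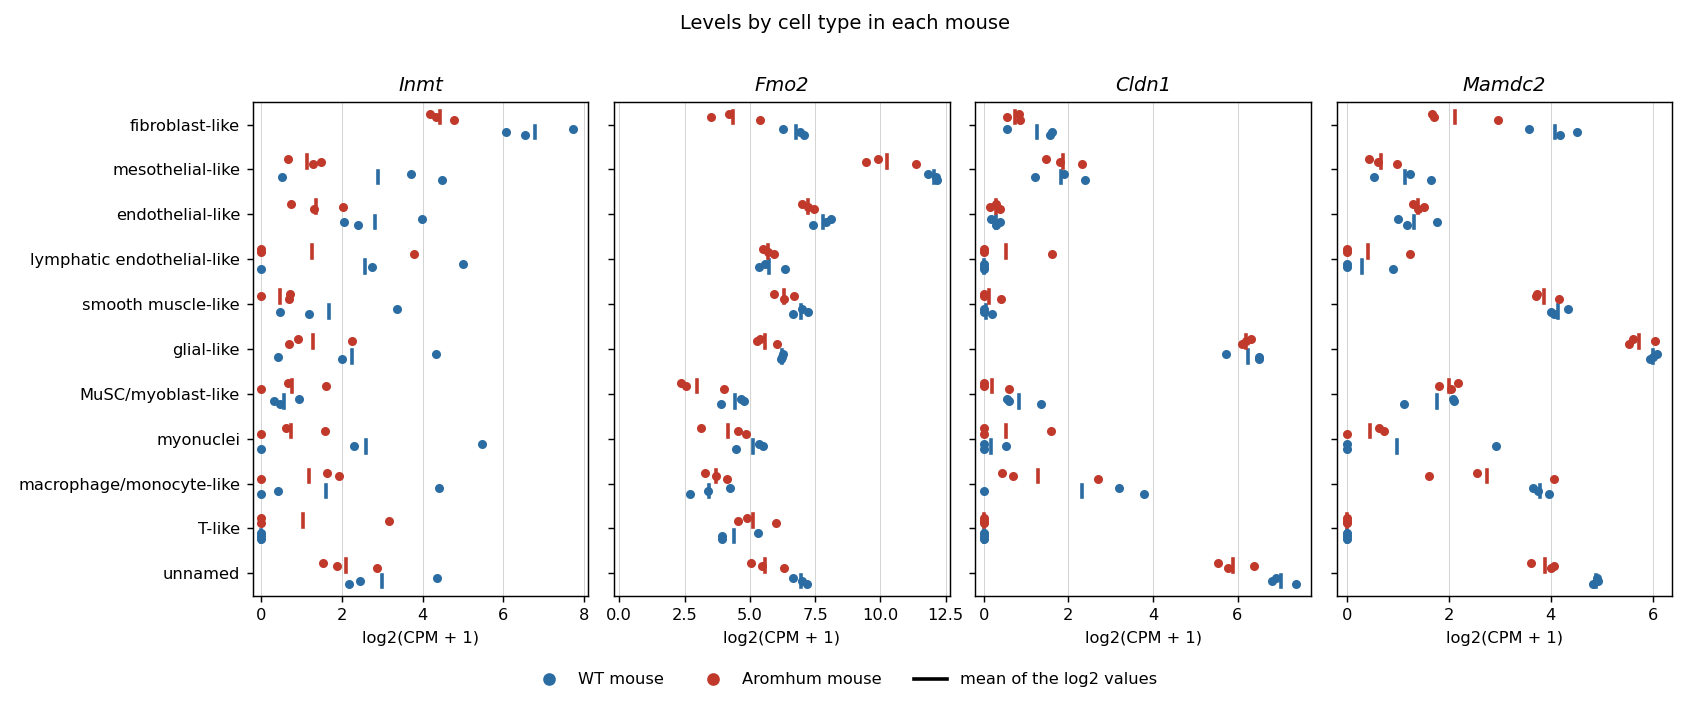
Levels of the 4 genes by cell type, as log2(CPM + 1) on the horizontal axis, with 1 point for each mouse (blue WT, red Aromhum) and a dash at the mean of the log2 values. Inmt is highest in fibroblast-like cells, Fmo2 in mesothelial-like cells, Cldn1 in the unnamed group and glial-like cells, and Mamdc2 in glial-like cells.

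In fibroblast-like cells as a whole, 3 of the 4 members were lower in every Aromhum mouse than in every WT mouse, which was also true of 18.7% of the 13866 genes tested. Because the members were chosen by this contrast, nothing is read from that count. Inmt was at 209, 65.9 and 92.2 CPM in WT mice 1, 2 and 3 and at 17.1, 19.2 and 26.5 CPM in Aromhum mice 1, 2 and 3. The Aromhum mice lay close together, whereas WT mouse 1 stood far above the other two. The log2 fold change from edgeR's fit on TMM-scaled libraries, was -2.61 (SE 0.45), and -1.92 without WT mouse 1.

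Fmo2 was at 76.6, 119 and 136 CPM in the WT fibroblast-like cells and at 17.4, 10.6 and 40.9 CPM in the Aromhum ones, a log2 fold change of -2.31 (SE 0.46). Aromhum mouse 3 was the nearest to the WT range. Mamdc2 was at 11.0, 21.7 and 17.04 CPM against 2.16, 2.27 and 6.84 CPM, a log2 fold change of -2.19 (SE 0.45), again with Aromhum mouse 3 the highest of its group. Without that mouse the Fmo2 value was -2.97 and the Mamdc2 value -2.88. Cldn1 was near the limit of detection, with 14, 44 and 29 UMIs in WT and 50, 32 and 37 UMIs in Aromhum mice. As levels these were 0.462, 2.08 and 1.98 CPM against 0.790, 0.458 and 0.809 CPM, so the groups overlapped, with WT mouse 1 among the Aromhum mice (log2 fold change -1.10, SE 0.53). In this fit, 6.07% of genes were called lower and 7.24% higher in Aromhum mice at an adjusted p under 0.05 (quasi-likelihood test of edgeR, Benjamini-Hochberg over all genes tested).

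On average, Inmt and Fmo2 UMIs were present in a smaller share of the fibroblast-like cells of Aromhum mice, also at equal depth. An Inmt UMI was present in 17.7% ± 6.25 (SD, n = 3) of WT and 6.18% ± 1.77 of Aromhum fibroblast-like cells. Inmt UMIs per positive cell were also lower in every Aromhum mouse, at 7.56, 4.99 and 5.93 in WT and 4.22, 4.09 and 4.63 in Aromhum mice. So were those of Fmo2, at 2.81, 3.20 and 3.71 against 2.43, 1.73 and 2.74, while those of Mamdc2 and Cldn1 overlapped. The share of all genes apart in this measure was not computed, so nothing is read from either separation. In endothelial-like cells, taken as background, the Inmt share was 0.802% ± 0.601 and 0.302% ± 0.154, at median depths of 2795 to 4740.5 UMIs against 8581 to 12814 in fibroblast-like cells. After thinning every cell to 1000 UMIs, which left out 126 WT and 157 Aromhum fibroblast-like cells, the Inmt shares were 7.46% and 1.93%. For Mamdc2 the shares were 11.0% ± 3.47 and 3.69% ± 2.79 (thinned, 1.63% and 0.408%), with 0.690% ± 0.209 and 0.640% ± 0.161 in endothelial-like cells. For Fmo2 they were 32.3% ± 6.99 and 12.5% ± 7.88 (thinned, 9.09% and 2.40%), beside 5.39% ± 2.59 and 4.35% ± 1.65 in macrophage and monocyte-like cells, whose median depths were 4473 to 9569.5 UMIs. For Cldn1 they were 1.03% ± 0.686 and 0.680% ± 0.236 (thinned, 0.276% and 0.101%), beside 0.105% ± 0.0484 and 0.0869% ± 0.0714 in endothelial-like cells. In macrophage and monocyte-like cells the Mamdc2 shares were 8.55% ± 1.89 in WT and 5.76% ± 6.91 in Aromhum mice and the Cldn1 shares 1.74% ± 1.51 and 0.920% ± 1.23. The mean Mamdc2 share of Aromhum and the mean Cldn1 shares of both genotypes in fibroblast-like cells were thus not above this background. Within single mice, Mamdc2 was above it in Aromhum mouse 2 (1.78% against 0.930%). Cldn1 was above it in WT mouse 2 (1.13% against 0%) and in Aromhum mice 1 (0.744% against 0.161%) and 2 (0.418% against 0.254%). Nothing is read from these shares. Marked doublets were 16.3% of the macrophage and monocyte-like cells and 5.25% of the fibroblast-like cells.

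Some of these low levels approached those of cells not known for the gene. Fmo2 in macrophage/monocyte-like cells ranged from 5.49 to 17.8 CPM over the 6 mice, and Aromhum mice 1 and 2 were inside that range in fibroblast-like cells. Mamdc2 in endothelial-like cells ranged from 1.00 to 2.43 CPM, which took in the fibroblast-like levels of Aromhum mice 1 and 2. Macrophage and monocyte-like cells had 11.6, 12.3 and 14.6 CPM of Mamdc2 in WT and 4.88, 2.03 and 15.8 CPM in Aromhum mice, above the fibroblast-like level of the same mouse in WT mouse 1 and in Aromhum mice 1 and 3. Inmt in endothelial-like cells was at 14.9, 3.18 and 4.32 CPM in WT and 0.690, 3.06 and 1.49 CPM in Aromhum mice, highest in the WT mouse with the highest fibroblast-like level. The part of free RNA in these values was not tested.

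The makeup of the fibroblast-like cells differed between the genotypes. Esr1hi HAF-like cells, marked by Esr1, Greb1 and Pgr, made up 1.30%, 0.363% and 0.482% of them in WT and 30.5%, 26.9% and 18.3% in Aromhum mice. The WT share depends on the clustering. A broader all-cell cluster led by Pnoc, Ren1 and Nppc, genes of the same marker list, held 370, 140 and 118 WT and 1678, 2017 and 790 Aromhum cells. Tppp3 FAP-like cells were 26.5%, 41.2% and 35.3% against 9.14%, 8.33% and 31.6%. Mmp3hi HAF-like cells were 0.412%, 0.0906% and 0% against 13.01%, 16.03% and 0.157%, nearly absent in Aromhum mouse 3. A tenocyte-like cluster led by Igfbp2, Fmod and Gas1 was 9.36%, 9.79% and 10.6% against 0.340%, 0.955% and 3.79%. Of its leading genes, Gas1 is on the marker list of tenocyte progenitors and not on that of tenocytes. A separate cluster led by the tendon genes Tnmd, Fmod and Wif1, left unnamed and not counted here, held 240, 316 and 229 WT and 250, 172 and 356 Aromhum cells, which overlapped. All 7 fibroblast markers were detected in it, and it went unnamed because Chodl, a muscle stem cell marker, was among its 10 leading genes. All 11 Esr1hi HAF markers were higher in every Aromhum mouse, a list that the study drew from these samples. A lower sum over all fibroblast-like cells can thus hold fewer cells of a type or less RNA per cell, which sums over mixed cells cannot tell apart. Markers of other cell types were low in these cells: the 7 endothelial markers summed to 150 to 178 CPM in WT and 134 to 156 CPM in Aromhum mice, the 8 macrophage markers to 10.8 to 13.1 against 16.0 to 29.5 CPM, and the 9 smooth muscle markers to 108 to 201 against 132 to 456 CPM. The 8 glial markers (17.6 to 35.4 against 8.66 to 13.3 CPM) and the 7 muscle stem cell and myoblast markers (35.9 to 44.9 against 24.9 to 28.9 CPM) were lower in every Aromhum mouse in sum, as Inmt, Fmo2 and Mamdc2 were. Of the fibroblast subtype lists, the 8 tenocyte progenitor markers were also lower in every Aromhum mouse in sum (3237 to 4727 against 1625 to 3048 CPM). The 8 T cell markers were higher in every one (4.06 to 5.84 against 6.36 to 15.2 CPM). Their part in the members' values was not tested.

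Set on 1 scale, the difference of mean log2(CPM + 1), the members' values depended on which cells were summed and how. Over all fibroblast-like cells the difference was -2.34 for Inmt, -2.39 for Fmo2, -1.97 for Mamdc2 and -0.50 for Cldn1. Over the cells of the 8 fibroblast clusters with at least 20 cells of every mouse it was -1.91, -1.89, -1.49 and -0.036. With those 8 clusters at equal weight it was -1.33, -0.82, -0.74 and -0.10, smaller again for Inmt, Fmo2 and Mamdc2 but not for Cldn1. CPM were averaged over the clusters before the log, so clusters with high levels weighed most. For Inmt and Fmo2 the highest was the cluster led by Gdf10, Cst3 and Esm1, where the genotypes overlapped. The weighted Inmt level was 272, 83.9 and 86.4 CPM in WT and 61.1, 42.4 and 46.8 CPM in Aromhum mice, so the 2 groups stayed apart. The weighted Mamdc2 level was 7.50, 13.3 and 9.60 CPM against 5.45, 6.74 and 4.51 CPM, also apart. The share of all genes apart under this weighting was not computed, so nothing is read from either separation. The weighted Fmo2 level was 58.4, 111 and 94.3 CPM against 39.9, 37.0 and 72.4 CPM, where Aromhum mouse 3 passed WT mouse 1.

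**Figure D2:**
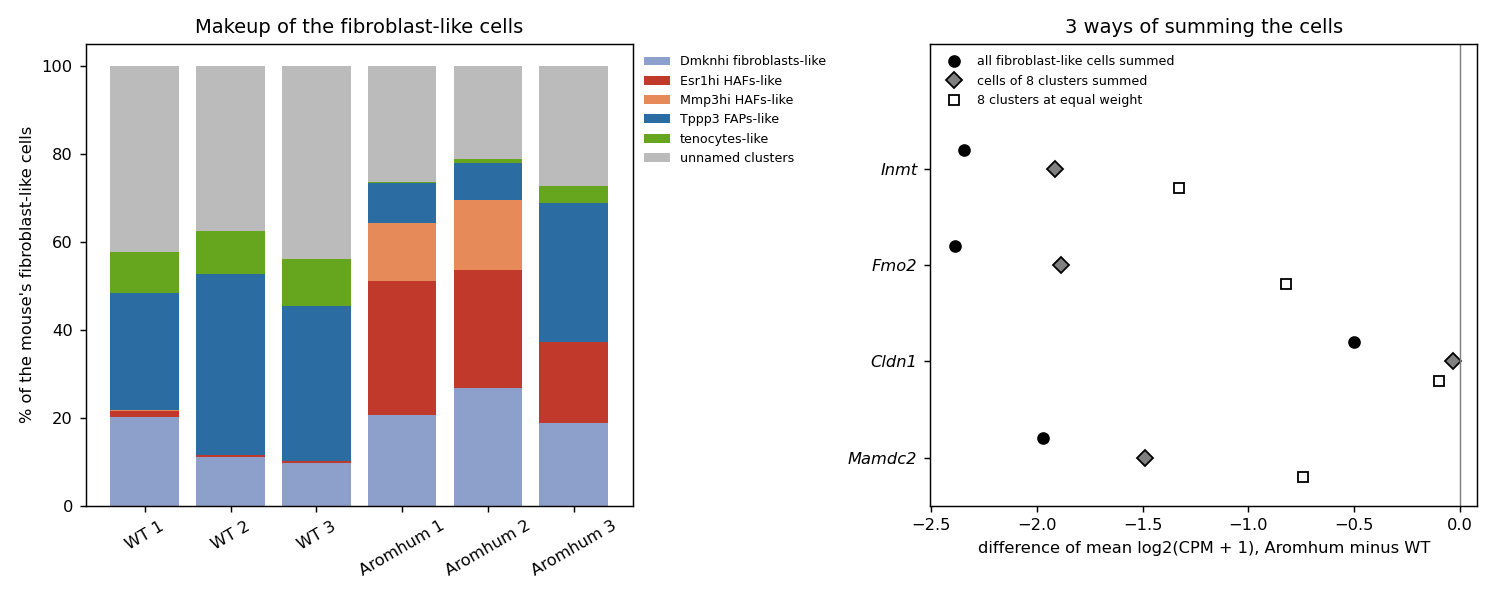
Left, the share of each fibroblast subtype among the fibroblast-like cells of each mouse, in percent. Right, the difference of mean log2(CPM + 1), Aromhum minus WT, of each gene over all fibroblast-like cells summed (circle), over the cells of 8 clusters summed (diamond) and with those 8 clusters at equal weight (square); Inmt is at -2.34, -1.91 and -1.33 and Cldn1 at -0.50, -0.036 and -0.10.

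Within fibroblast clusters, Inmt was highest in a cluster led by Gdf10, Cst3 and Esm1, where the genotypes overlapped. It was at 787, 425 and 155 CPM there in WT and at 338, 226 and 216 CPM in Aromhum mice. The separation was wide in a cluster led by Stmn4, Uchl1 and Efhd1, with 37.6, 12.5 and 21.1 CPM against 4.42, 1.91 and 3.70 CPM (log2 fold change -2.89, SE 0.41). In the cluster led by Irgm1, Ifi207 and Ces1d it was at 260, 69.4 and 108 CPM against 55.9, 35.0 and 49.9 CPM (log2 fold change -1.71, SE 0.39). In all, every Aromhum mouse was below every WT mouse in 5 of the 8 clusters for Inmt and in 5 of 8 for Fmo2, but in 1 of 8 for Mamdc2 and none for Cldn1, a count that includes clusters with few UMIs of the gene. Of the genes tested, 8.58% did so in the cluster led by Irgm1, 9.47% in that led by Mup5, 10.7% in that led by Stmn4, 9.01% in that led by Lars2, 5.31% in that led by Gdf10, 8.29% and 7.11% in those led by Dact2 and Itgb7, and 7.24% in that led by Apod.

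By subtype, Inmt in Dmknhi fibroblast-like cells, whose marker list includes Dpp4 and Pi16, was at 88.6, 12.3 and 29.1 CPM in WT and 1.66, 3.57 and 3.39 CPM in Aromhum mice. The subtype lay in different clusters in the genotypes: its cluster led by Dmkn, Krt23 and Sbsn held 9, 0 and 0 of the 684, 245 and 140 WT cells and 478 of 971, 1117 of 1787 and 10 of 601 Aromhum cells. In the Dmknhi cluster led by Itgb7, Krtdap and Akr1c18, which every mouse held, Inmt was at 122, 17.6 and 54.1 CPM against 0, 4.08 and 0 CPM. In Tppp3 FAP-like cells, where Inmt was highest, the values were 331, 79.2 and 142 CPM against 56.8, 39.0 and 48.3 CPM. Esr1hi HAF-like cells had 22.01, 27.7 and 3.47 CPM of Inmt in Aromhum mice. WT mice 1, 2 and 3 had 44, 8 and 7 such cells, and no level was taken under 20 cells; the 44 cells of WT mouse 1 had 12.1 CPM. A broader cluster made on all cells and led by Pnoc, Ren1 and Nppc held 370, 140 and 118 WT cells. There Inmt was at 20.2, 30.2 and 12.8 CPM in WT and 19.4, 23.9 and 4.28 CPM in Aromhum mice, and Fmo2 at 30.2, 25.7 and 18.6 CPM against 22.3, 10.4 and 28.3 CPM, so both overlapped.

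**Figure D3:**
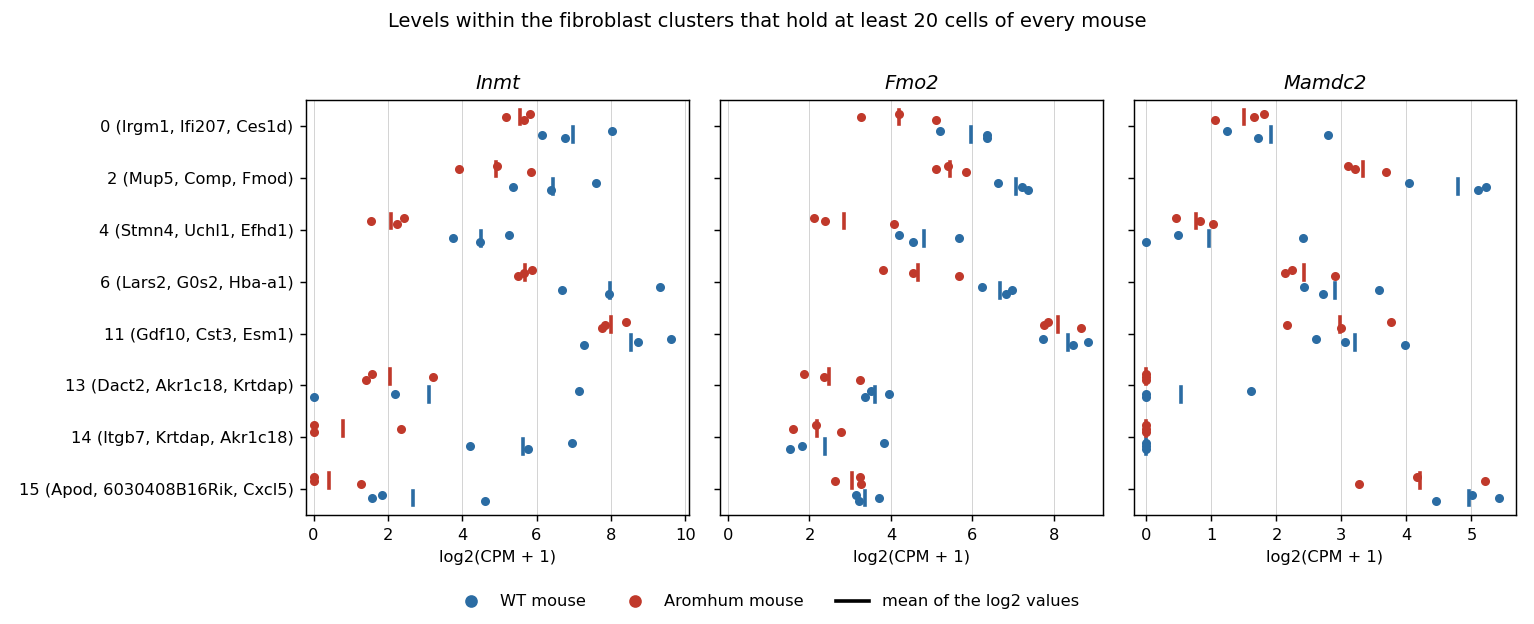
Levels of Inmt, Fmo2 and Mamdc2 within the 8 fibroblast clusters that held at least 20 cells of every mouse, as log2(CPM + 1), with 1 point for each mouse and a dash at the mean of the log2 values. Clusters are named by number and leading genes; Inmt and Fmo2 overlap between the genotypes in cluster 11 (Gdf10, Cst3, Esm1), where both are highest.

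Fmo2 in fibroblasts was likewise highest in the cluster led by Gdf10, Cst3 and Esm1, with 210, 454 and 354 CPM in WT and 230, 216 and 401 CPM in Aromhum mice, and these overlapped. Of the 5 clusters without overlap, the one led by Mup5, Comp and Fmod had 98.6, 148 and 165 CPM against 41.1, 33.6 and 56.3 CPM (log2 fold change -1.61, SE 0.22). The cluster led by Lars2, G0s2 and Hba-a1 had 74.7, 123 and 112 CPM against 12.97, 22.4 and 49.96 CPM (log2 fold change -1.66, SE 0.30). In the Dmknhi cluster led by Stmn4, Uchl1 and Efhd1, it was at 17.2, 49.9 and 22.2 CPM against 3.32, 4.21 and 15.7 CPM (log2 fold change -1.76, SE 0.46), with Aromhum mouse 3 close to WT mouse 1.

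Fmo2 was far more abundant in mesothelial-like cells, the lining cells of body cavities, than in any fibroblast cluster, and it was lower there in Aromhum mice too. It reached 3660, 4532 and 4596 CPM in WT and 962, 691 and 2664 CPM in Aromhum mice, and the groups did not overlap (12.0% of 11711 genes tested did so in this direction). The log2 fold change was -1.50 (SE 0.44). These cells numbered 149, 173 and 68 in WT and 663, 1010 and 676 in Aromhum mice. Nearly all of them held the transcript: 98.4% ± 1.75 of WT and 90.4% ± 8.55 of Aromhum cells had an Fmo2 UMI, or 93.2% ± 4.64 and 60.6% ± 22.3 at 1000 UMIs a cell. Beside this, the 10 Mmp3hi HAF markers summed to 531 to 864 CPM in WT and 1356 to 16210 CPM in Aromhum mesothelial-like cells, and the 8 mesothelial markers to 6205 to 9061 against 4532 to 7822 CPM. Of the Mmp3hi markers, 3 of 10 were higher in every Aromhum mouse. The 11 Esr1hi HAF markers summed to 58.9 to 145 against 302 to 1703 CPM, with 9 of 11 higher in every Aromhum mouse. The 7 fibroblast-like markers (16458 to 17760 against 19655 to 20490 CPM) and the 8 tenocyte progenitor markers (1915 to 2006 against 2209 to 2501 CPM) were also higher in sum in every Aromhum mouse. The 9 Dmknhi fibroblast markers (3969 to 4842 against 2414 to 3436 CPM) and the 8 tenocyte markers (361 to 554 against 154 to 253 CPM) were lower in sum in every Aromhum mouse, as Fmo2 was. Their part in the Fmo2 values was not tested.

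In vessels Fmo2 was read in 2 endothelial clusters. In the cluster led by Ackr1, Selp and Sele, genes known from venules, it was at 436, 534 and 332 CPM in WT and 160, 192 and 271 CPM in Aromhum mice (log2 fold change -1.18, SE 0.22), without overlap (11.3% of genes tested). In the cluster led by Timp4, Gpihbp1 and Tcf15, genes known from capillaries, it was at 422, 282 and 251 CPM against 309, 355 and 285 CPM, with overlap (log2 fold change -0.06, SE 0.17). Over all endothelial-like cells the values were 274, 240 and 170 CPM against 125, 148 and 177 CPM, and only Aromhum mouse 3 reached the WT range. Whether the 2 clusters differ in their genotype difference was not tested. In glial-like cells the values were 75.6, 73.7 and 71.5 CPM against 41.5, 37.4 and 64.9 CPM, apart by group (7.78% of genes tested), and in smooth muscle-like cells 126, 149 and 99.9 CPM against 59.7, 102 and 77.4 CPM, with Aromhum mouse 2 just inside the WT range.

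Cldn1 was a gene of the small cluster led by Sfrp5, Lypd2 and Wnt6. This cluster also held Slc2a1, a glucose transporter, at 1356 CPM ± 220 (SD, n = 6) and Itgb4, an integrin chain of epithelial attachment, at 786 CPM ± 157. Of the fibroblast markers, Pdgfra was at 18.3 CPM ± 10.8 and Col1a1 at 1087 CPM ± 618, and the 7 summed to 18558 to 24532 CPM over the 6 mice, against 42949 to 50470 CPM in fibroblast-like cells. Of the mesothelial markers, Upk3b was at 8.57 CPM ± 7.58 and Msln at 160 CPM ± 66.5. The cluster was left unnamed, and a larger cluster led by Sfrp5, Lypd2, Apod and Cldn1 was named fibroblast-like when the members were allowed to shape the clusters. Cldn1 was at 605, 615 and 550 CPM in WT and 332, 501 and 356 CPM in Aromhum mice, and the groups did not overlap (6.64% of 5983 genes tested). The log2 fold change was -0.58 (SE 0.17). In the same cells the 10 Mmp3hi HAF markers summed to 1562 to 2274 CPM in WT and 2446 to 3018 CPM in Aromhum mice, with 6 of 10 higher in every Aromhum mouse, and the 11 Esr1hi HAF markers to 390 to 582 against 599 to 1919 CPM. Their part in the Cldn1 values was not tested. A Cldn1 UMI was present in 79.1% ± 5.87 of WT and 66.02% ± 6.78 of Aromhum cells of the cluster, beside 0.105% in WT endothelial-like cells. Cells of this cluster numbered 84, 98 and 108 in WT and 72, 66 and 97 in Aromhum mice.

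The second Cldn1 cluster was glial-like, with Grp and Gatm among its leading genes. Cldn1 was at 271, 354 and 250 CPM there in WT and 294, 283 and 201 CPM in Aromhum mice, with overlap. Of its 281 cells, 35.9% were marked as likely doublets, against 9.33% of the Sfrp5 cluster, and its median depth was 10613 UMIs. Within fibroblast-like cells, 76 of the 206 Cldn1 UMIs were in a cluster led by Apod, 6030408B16Rik and Cxcl5, at 15.7, 47.8 and 25.0 CPM in WT and 55.0, 5.13 and 20.1 CPM in Aromhum mice. That overlap left no fibroblast cluster in which Cldn1 was lower in every Aromhum mouse. In 2 all-cell clusters with few UMIs of the gene the order was the other way: the cluster led by Gsn, Abca8a and Myoc had 3, 6 and 6 Cldn1 UMIs in WT (0.296, 0.552 and 0.838 CPM) and 11, 6 and 19 in Aromhum mice (1.45, 0.954 and 1.16 CPM), and that led by Pnoc, Ren1 and Nppc had 0 in each WT mouse and 18, 7 and 1 in Aromhum mice. T-like cells had 0 Cldn1 UMIs, which with 3 counts as the limit allows 4.77 to 43.3 CPM per mouse.

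Mamdc2 was highest in a glial-like cluster of 880 cells led by Col20a1, Ptn and Bche. It was at 136, 138 and 148 CPM in WT and 94.6, 105 and 112 CPM in Aromhum mice, without overlap (6.69% of genes tested), and the log2 fold change was -0.47 (SE 0.14). The share of its cells with a Mamdc2 UMI was 34.4% ± 7.03 in WT and 26.8% ± 6.01 in Aromhum mice, but at 1000 UMIs a cell it was 9.27% ± 2.38 and 11.0% ± 3.38, the other way. The 7 endothelial markers summed to 1063 to 1838 CPM there in WT and 678 to 763 CPM in Aromhum mice, the 7 muscle stem cell and myoblast markers to 107 to 251 against 55.9 to 76.6 CPM, and the 10 Mmp3hi HAF markers to 532 to 1065 against 1515 to 2459 CPM. The 8 macrophage markers overlapped, at 4735 to 10070 against 2201 to 5691 CPM. Their part in the Mamdc2 values was not tested. A smooth muscle-like cluster led by Myh11, Acta2 and Myl9, the contractile genes, came next with 67.1, 82.9 and 80.5 CPM against 50.3, 59.4 and 56.3 CPM (log2 fold change -0.55, SE 0.18), also without overlap (9.02% of genes tested). At 1000 UMIs a cell, the share of its cells with a Mamdc2 UMI was 7.35% ± 0.876 in WT and 7.14% ± 2.82 in Aromhum mice, and the mice overlapped. In this cluster the 10 Mmp3hi HAF markers summed to 78.3 to 190 CPM in WT and 404 to 976 CPM in Aromhum mice, with 9 of 10 higher in every Aromhum mouse, the 9 Dmknhi fibroblast markers to 217 to 415 against 555 to 853 CPM, and the 9 myonuclear markers to 110 to 588 against 44.1 to 85.5 CPM. Their part in the values was likewise not tested. Over the all-cell clusters with at least 20 cells of every mouse, Mamdc2 was lower in every Aromhum mouse in 8 and overlapped in 19. In 1 it was higher in every Aromhum mouse. These counts include clusters with few UMIs of the gene, and nothing is read from them.

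**Figure D4:**
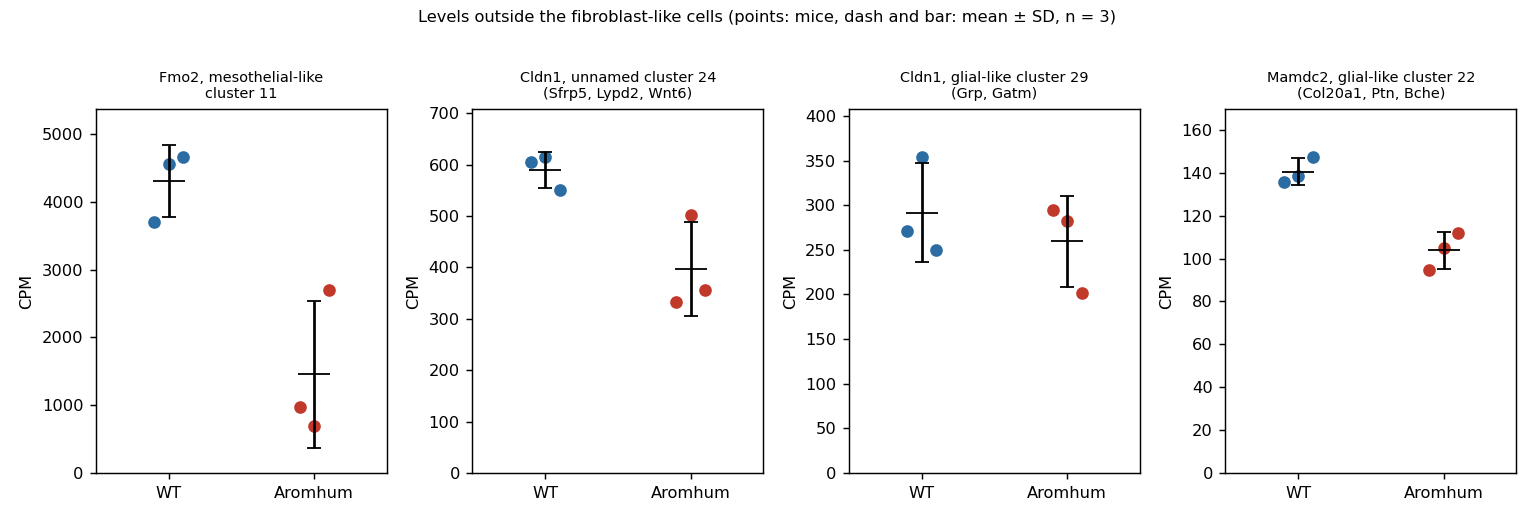
Levels outside the fibroblast-like cells in CPM, with 1 point for each mouse and the mean ± SD (n = 3) beside them; each vertical axis starts at 0. Fmo2 in the mesothelial-like cluster, Cldn1 in the Sfrp5 cluster and Mamdc2 in the Col20a1 glial-like cluster have no Aromhum mouse inside the WT range, and Cldn1 in the Grp glial-like cluster overlaps.

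Among fibroblast-like cells of WT mice, Mamdc2 was high in the tenocyte-like cluster led by Igfbp2, Fmod and Gas1 and low in FAP-like cells. In that tenocyte-like cluster it was at 35.7, 52.5 and 39.1 CPM in WT mice and at 9.68 and 16.9 CPM in Aromhum mice 2 and 3. Aromhum mouse 1 had 16 such cells and no level was taken. An unnamed cluster led by Tnmd, Fmod and Wif1, genes known from tendon, had 30.1, 28.2 and 28.2 CPM against 10.4, 17.3 and 10.8 CPM (log2 fold change -1.31, SE 0.22), without overlap (12.3% of genes tested). In the all-cell cluster led by Pnoc, Ren1 and Nppc, where Inmt and Fmo2 overlapped, Mamdc2 was at 31.7, 45.9 and 37.1 CPM against 2.80, 3.31 and 10.8 CPM (log2 fold change -2.81, SE 0.48; 17.3% of genes tested lay apart in this direction). That cluster held 370, 140 and 118 WT cells. At most 44, 8 and 7 of them were named Esr1hi HAF-like when fibroblast-like cells were clustered again, since WT mice had no more under that name. Aromhum mice had 1437, 1803 and 585 Esr1hi HAF-like cells, so the value may compare unlike cells. The 44 Esr1hi HAF-like cells of WT mouse 1 had 46.6 CPM, against 2.97, 3.19 and 12.1 CPM in the Aromhum mice. In Tppp3 FAP-like cells it overlapped, at 1.92, 7.50 and 3.07 CPM in WT and 2.92, 2.50 and 2.59 CPM in Aromhum mice. T-like cells had 0 Mamdc2 UMIs.

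The genes whose log2 levels followed each member most closely over the 182 sums, among 12387 candidates, were C7 (r = 0.71), Sult1e1 (0.68) and Gdf10 (0.65) for Inmt. For Fmo2 they were F11r (0.77), which encodes a tight junction adhesion molecule, C130074G19Rik (0.72) and Fmo1 (0.71), an enzyme of its own family. For Cldn1 they were Tenm2 (0.92), Mansc4 (0.90) and Shisa3 (0.87). For Mamdc2 they were Etv1 (0.75), a transcription factor, Cspg4 (0.73), a proteoglycan of pericytes, and Ajap1 (0.61). The first gene of each list was also first with a pseudocount of 10 CPM and with sums of at least 50 cells.

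Relatives of the members were read from lists that leave the members out, in the same fit over fibroblast-like cells. Of 145 list genes tested, 9 were called higher and 34 lower in Aromhum mice, beside 7.24% and 6.07% of all genes. The lists were written with earlier results of these data known. Their counts are therefore a description, and nothing is read from how they compare with all genes. This holds for each list in the next paragraphs. The number of calls changed when 1 mouse was left out. Without WT mouse 2 or 3, or Aromhum mouse 1 or 2, none was called, and 6 to 33 genes were called over all genes. Without WT mouse 1 there were 2 higher and 2 lower list genes, and without Aromhum mouse 3 there were 21 higher and 49 lower. A smaller group alone can lose calls, so these counts cannot tell whether a given gene's call rested on 1 mouse. The counts also depended on which mouse was left out. With 1 Aromhum mouse fewer, 7 genes were called over all genes without mouse 1, 33 without mouse 2 and 3971 without mouse 3. No called list gene named in the next paragraphs changed direction without 1 mouse. With the barcode limits that the study states none was called, and over all genes 1 was called, although 1966 genes had an unadjusted p under 0.05 against 4597 with every barcode. Those limits without their cap of 2500 genes a barcode gave 987 genes higher and 889 lower. With the replicate number as a block in edgeR's fit, 8 of the list genes named as called in the next paragraphs lost the call: Ahcyl2 (adjusted p = 0.0603), Adk (0.0744), Cyb5r3 (0.0810), Aldh1a2 (0.0710), Cldn34c1 (0.0648), Egfl6 (0.0506), Zbtb16 (0.0515) and Hsph1 (0.0636). Without the filter on low counts, 6 of them lost it: Adk (0.0542), Cyb5r3 (0.0573), Cldn34c1 (0.0509), Tjp1 (0.0521), Tsc22d3 (0.0581) and Zbtb16 (0.0535). Cyb5r3 also just missed the threshold with RLE size factors, with coarser clusters and without marked doublets, Tsc22d3 with the limits without the gene cap (0.0507), and Adk, Gsta3, Tsc22d3, Zbtb16 or Hsph1 with 1 or more of the other ways of choosing the fibroblast-like cells.

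Among methyltransferases and enzymes of the methyl donor cycle, 3 of 21 rose and 3 fell, with a median log2 fold change of -0.07 against 0.01 over all genes. Nnmt, a close relative of Inmt, was at 46.3, 55.4 and 65.2 TMM-scaled CPM in WT and 43.1, 36.6 and 71.3 in Aromhum mice (log2 fold change -0.14, adjusted p = 0.728), so it was not called. Hnmt, which inactivates histamine, fell by 0.97 on the log2 scale (adjusted p = 0.0172). Mtr, methionine synthase, rose by 1.22 (adjusted p = 0.0154), and As3mt, the arsenic methyltransferase, by 0.46. Ahcyl2 fell by 0.42 and Adk, adenosine kinase, by 0.34, and with the replicate block 1 gene of the list was called lower. Cbs, which draws homocysteine into cysteine synthesis, was also called higher, at 1.201, 1.19 and 0.433 TMM-scaled CPM in Aromhum mice and 0 in each WT mouse. It is 1 of the 3 that rose, but it passed the filter on low counts only through the Aromhum mice, so nothing is read from its call.

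Of 46 oxidation and conjugation enzymes, 5 rose and 12 fell (median log2 fold change -0.12). Fmo1, a flavin monooxygenase like Fmo2, fell: it was at 87.4, 72.4 and 82.4 TMM-scaled CPM in WT and 21.99, 18.1 and 40.7 in Aromhum mice (log2 fold change -1.58, SE 0.29, adjusted p = 0.0245). The largest falls were in Sult1a1, a sulfotransferase (-1.97, adjusted p = 0.0207), and Gsta3, a glutathione transferase (-1.61). Cyp27a1, a sterol hydroxylase, and Gsta4 fell by 1.41 and 1.39. Other members of the list rose, led by the steroid reductase Akr1c14 (3.25), Cyp4b1 (2.56) and Aldh1a2, which makes retinoic acid (2.17), with smaller rises in Pon3 (0.52) and Cyb5r3 (0.38).

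Of 24 claudin and tight junction genes none rose and 4 fell (median -0.16): Cldn7 by 2.06 (adjusted p = 0.0275), Cldn34c1 by 0.94, Jam2 by 0.68 and the scaffold gene Tjp1 by 0.56. Cldn7 was at 1.36, 2.66 and 1.70 TMM-scaled CPM in WT and 0.308, 0.376 and 0.700 in Aromhum mice. These levels were low, like those of Cldn1 in the same cells, and near the limit of detection. The 3 claudins with the highest levels in fibroblast-like cells did not pass the test, with log2 fold changes of -0.48 for Cldn10 (adjusted p = 0.507), 0.47 for Cldn15 (0.313) and -0.82 for Cldn5 (0.0847). Cldn5 is known from endothelium, and 1 unnamed cluster of 370 fibroblast-like cells was led by Fabp4, Cldn5 and Gpihbp1, with 41.6% of its cells marked as likely doublets. Their part in the Cldn5 value was not tested. Of 8 genes for MAM-domain proteins none rose and 2 fell (median -0.23), the matrix gene Egfl6 by 1.67 (adjusted p = 0.0289) and the phosphatase gene Ptpru by 1.00 (adjusted p = 0.0298). The 3 with the highest levels, Nrp1 (1.09, adjusted p = 0.0646), Nrp2 (0.40, 0.160) and Ptprk (-0.10, 0.719), did not pass, though Nrp1 passed with DESeq2 (1.08, adjusted p = 0.00448). Cldn5 passed with DESeq2 (adjusted p = 0.0274) and in edgeR with the replicate number as a block (adjusted p = 0.0456).

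Hormone responsive and stress responsive genes were read beside the members. Of 17 genes known to respond to glucocorticoids or androgens, none rose and 5 fell (median -0.45): Sult1a1, Pdk4 by 1.51, Cebpd by 1.28, Tsc22d3 by 1.14 and Zbtb16 by 1.01. Of 30 dissociation stress and immediate early genes, 1 rose and 9 fell (median -0.40), with Socs3 lower by 1.46, Zfp36 by 1.41, Fos by 1.27, Myc by 1.00 and Junb by 0.95, and Hsph1 higher by 0.70. Fos was at 2225, 2335 and 2594 TMM-scaled CPM in WT and 821, 902 and 1242 in Aromhum mice. The part of these genes' differences in the members' values was not tested.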

How the data were processed

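Single-cell RNA was measured in the LAM of 3 WT and 3 Aromhum male mice. The deposited values were whole UMI counts per gene and barcode, which the authors made with Cell Ranger 3.0.2 and the mm10-3.0.0 reference. Every barcode was used. Cells were clustered in Python 3.11.15 (leidenalg 0.10.2, 2000 variable genes without the 4 members, 30 principal components, 20 neighbors, resolution 0.8) and named "-like" from marker lists. The rules that a name needs most of its markers, and that a subtype needs more of its own than of other markers, were set after the data were seen. The 8% of barcodes with the highest doublet scores were marked and kept, and leaving them out was an alternative. Counts were summed per mouse, and groups under 20 cells of a mouse got no level. Genotypes were fitted with edgeR 4.0.16 in R 4.3.3 (TMM, filterByExpr, quasi-likelihood, Benjamini-Hochberg, threshold 0.05), with DESeq2 1.42.0 as an alternative. On simulated counts for 13866 genes, the fit called 51.5%, 92.5% and 97.0% of genes changed by 1, 2 and 3 on the log2 scale, and 15 calls (8.52% of all) were false. The members and lists were chosen with earlier results of these data known. Genes named were the members, up to 5 higher and 5 lower called genes of each list by size, fixed relatives of each member and the 3 genes most like it. Limits from 0 counts cover counting error only.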

Additional observations from a re-analysis of the deposited data

How the results depend on the processing

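With the barcode limits stated in the study's methods, which kept 32.992% of fibroblast-like cells, 1 gene was called higher and 0 lower in Aromhum mice, and 0 list genes were called in either direction. The limits kept 5.41% of Esr1hi HAF-like and 12.6% of tenocyte-like cells, but 35.3% to 42.5% of the other fibroblast-like groups. They left 1673, 525 and 453 fibroblast-like cells in WT and 1214, 2749 and 530 in Aromhum mice 1 to 3. The members were then at -1.93 (Inmt), -1.71 (Fmo2), -0.45 (Cldn1, SE 0.71) and -2.12 (Mamdc2). The same limits without their cap on genes gave -2.66, -2.37, -0.86 and -2.17. DESeq2 called 1476 genes higher and 1293 lower, and 15 list genes higher and 48 lower. Leaving out 1 mouse at a time gave 6 to 2082 genes higher and 0 to 1889 lower (all genes), and 0 to 21 list genes higher and 0 to 49 lower, the most without Aromhum mouse 3. Without 1 mouse, the log2 differences of the members ran from -2.92 to -1.92 for Inmt, -2.97 to -1.97 for Fmo2, -1.57 to -0.79 for Cldn1 and -2.88 to -1.93 for Mamdc2. With 8 fibroblast clusters at equal weight they were -1.33, -0.82, -0.10 and -0.74 on the log2(CPM + 1) scale, where the cells of those clusters summed gave -1.91, -1.89, -0.036 and -1.49 and all cells -2.34, -2.39, -0.50 and -1.97 (both added after seeing the data). Cldn1 was at -2.41 when the members were allowed among the variable genes, a setting whose fibroblast-like cells took in a cluster of 934 cells led by Sfrp5, Lypd2, Apod and Cldn1. Thinned to 1000 UMIs, the shares of WT and Aromhum fibroblast-like cells with a UMI were 7.46% and 1.93% for Inmt, 9.09% and 2.40% for Fmo2, 0.276% and 0.101% for Cldn1, and 1.63% and 0.408% for Mamdc2, where less depth alone lowers a share. The mean Inmt level in fibroblast-like cells, 71.7 CPM, was 132 CPM with the barcode limits. The mean Mamdc2 level in glial-like cells, 57.9 CPM, was 22.4 CPM with the barcode limits and 67.7 CPM without marked doublets. Among named genes, Nnmt (0.43) and Nrp2 (-0.35) turned direction with the limits. Without 1 mouse, Nnmt ran from -0.49 to 0.042, Cldn10 from -0.77 to 0.23 and Ptprk from -0.25 to 0.049. Other causes were not tested.

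Which mice shared a session of tissue handling is not known here. Deviations of same-numbered mice correlated at 0.21, -0.13 and 0.15, so the numbers were not taken as pairs. With the replicate number as a block, 718 genes were higher and 697 lower, 1176 of them shared with the fit without it, and 6 and 31 list genes. The members were then at -2.41 (Inmt), -2.46 (Fmo2), -0.99 (Cldn1) and -2.32 (Mamdc2). Low counts limit Cldn1 in fibroblast-like cells, with 14 to 50 UMIs a mouse, and groups of 3 mice limit every comparison.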
